A study of Homo sapiens with 18 samples.

Results

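The 9 imprinted genes DLK1, MEG3, H19, IGF2, CDKN1C, PEG3, PEG10, MEST and GRB10 were followed from human embryonic stem (ES) cells to neuroepithelium. They were chosen by name, with earlier results of these data known. For each gene the array probe sets annotated to that gene alone were taken, those with the suffix _x_at were dropped where another existed, and the probe set with the highest mean log2(signal + 16) over the 18 arrays was kept. By this rule 7 of the 9 genes were measured, among 19775 genes in all. H19 and IGF2 had no probe set of their own: 2 probe sets are annotated to MIR675 and H19 together, and 3 to INS-IGF2 and IGF2 together. Those are described by their probe set names below and enter no count of genes.

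An imprinted gene is transcribed mainly from the copy inherited from 1 parent, because DNA methylation laid down in the egg or sperm marks a control region of its cluster. DLK1, IGF2, PEG3, PEG10 and MEST are expressed from the paternal copy, and MEG3, H19 and CDKN1C from the maternal copy. Which copy of GRB10 is expressed depends on the tissue, and in neurons it is the paternal copy. Many of these genes regulate fetal growth, and several are expressed in embryonic brain and mesoderm. The arrays measure total RNA of both copies, so the signals say nothing of which copy was read.

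All samples came from H9, an established human ES cell line, and each array was hybridised with a pool of RNA. The 6 groups of 3 pools were undifferentiated ES cells, embryoid bodies (cell aggregates in suspension) at day 6, neuroepithelium at day 10 with and without basic fibroblast growth factor (bFGF), and neuroepithelium at day 17 with and without bFGF, which was given from day 6. The labels call the day 10 cells primitive and the day 17 cells definitive neuroepithelium. They give 20 ug/ml bFGF at day 10 and 20 ng/ml at day 17. H9 is 1 cell line. By their passages, day 6 pools 1 and 2 both came from the ES passages of ES pool 1, and day 6 pool 3 from those of ES pool 3, while ES pool 2 joined another set. For the neuroepithelial groups no passage is named. Apart from the passages of day 6 pool 3, nothing shows that the pools of a group after ES cells came from separate cultures. The p-values therefore cover the spread among these pools alone, which may be technical.

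The values are linear signals in arbitrary units that had been scaled to a 2% trimmed mean of 150.016 to 150.026 on every array. Pool 2 of the 4 neuroepithelial groups stood apart: these 4 arrays had medians of 48.7 to 50.8 and 5th percentiles of 3.30 to 3.46, against 25.2 to 32.7 and 1.23 to 1.73 on the other 14. The 3' to 5' ratio of the ACTB control probes was 2.27 to 2.64 on the 6 pool 2 arrays, against 1.17 to 1.75 on the 12 others. The summed signal of 9 pluripotency genes was 11691 to 13735 at day 17 and 36806 to 41607 in ES cells. That of 12 neuroepithelial genes was 35647 to 45364 at day 17 and 10740 to 11594 in ES cells. SOX2 is counted in both sums, with 6151 to 6969 at day 17 and 5891 to 7306 in ES cells. The sums are therefore no measure of how much of either programme a group holds. The pools hold mixed cells, so that more cells of a type and more RNA per cell cannot be told apart. Changes are differences of mean log2(signal + 16) ± standard error, a scale that understates changes of low signals. They were tested with limma over all 18 arrays and called where the Benjamini-Hochberg adjusted p over 19775 genes was under 0.05.

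By day 17 without bFGF, 5 of the 7 measured genes were higher than in ES cells: DLK1, CDKN1C, PEG3, PEG10 and GRB10. None was lower. Of all genes tested, 11.7% were called higher and 8.47% lower in that comparison. The median log2 change of the 7 genes was 1.72, beside 0.09 over all genes. At day 6, DLK1, PEG10 and MEST were already called higher than in ES cells, in a comparison with 2.19% of genes higher and 1.66% lower. Between day 6 and day 10 only DLK1 was called, where 3.73% of genes were higher and 2.64% lower. Between day 10 and day 17 none of the 7 was called by limma, where 1.45% of genes were higher and 0.536% lower, although the unadjusted p was under 0.05 for 2, CDKN1C and GRB10.

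**Figure D1:**
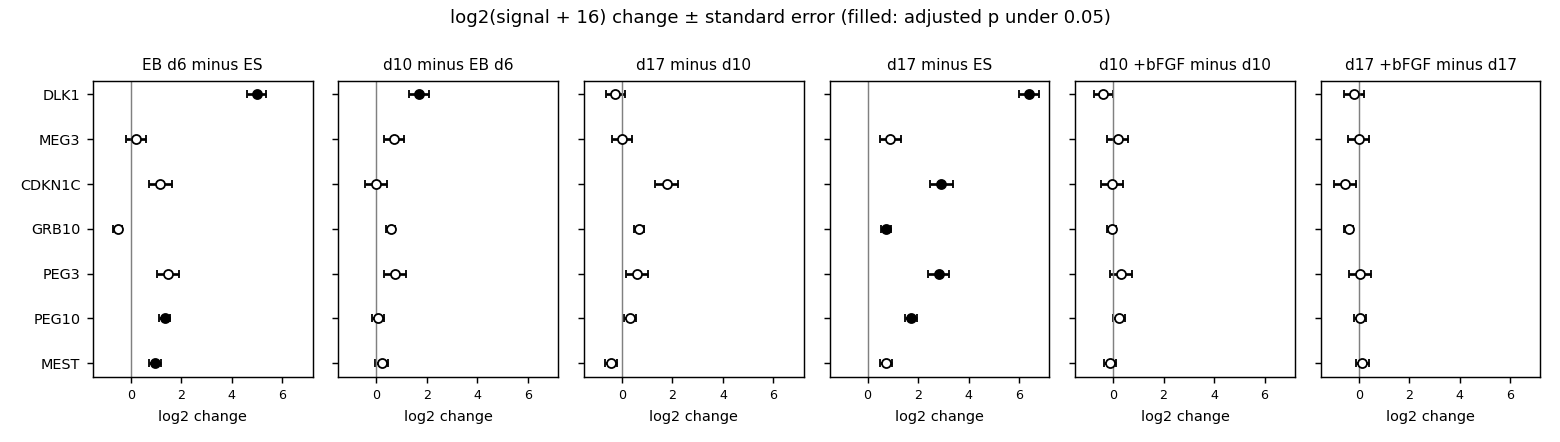
The log2(signal + 16) change of each of the 7 measured imprinted genes (rows) in 6 comparisons (panels), with bars of 1 standard error (n = 3 pools a group); filled points have an adjusted p under 0.05. DLK1 lies at 4.98 for day 6 minus ES cells and 6.40 for day 17 minus ES cells, and no point is filled in either bFGF panel.

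**Figure D2:**
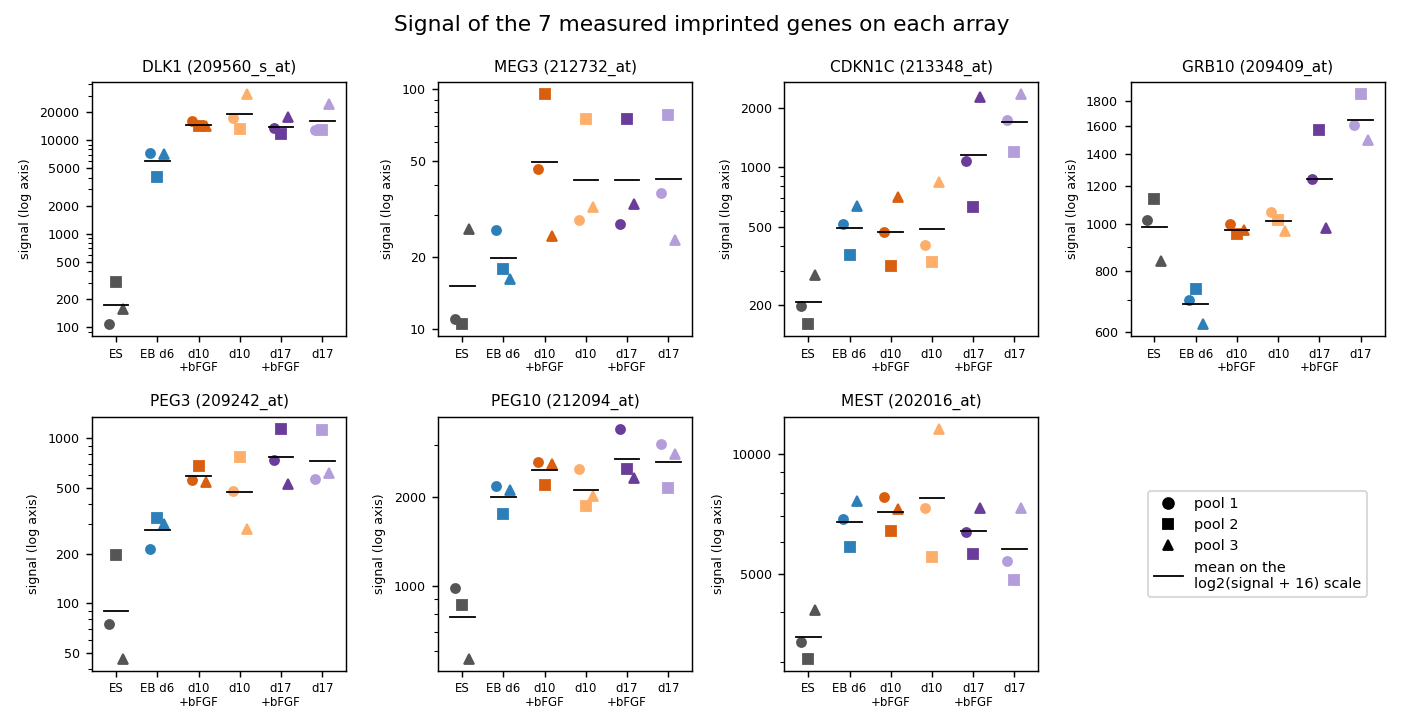
Signal (log axis, its own range in each panel) of the kept probe set of each gene on all 18 arrays; symbols mark the pool number and lines the group mean on the log2(signal + 16) scale. DLK1 is low in ES cells alone, CDKN1C has its highest mean at day 17 without bFGF, GRB10 is lowest at day 6, and MEG3 stays under 100 on every array.

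DLK1, a transmembrane protein related to the Notch ligands that marks progenitor cells and holds back fat cell formation, had the largest change of the 7 genes from ES cells to day 17. Its signal (209560_s_at) was 107, 308 and 155 in the 3 ES pools, 7399, 4038 and 7121 at day 6, 17227, 13208 and 31442 at day 10, and 12949, 12873 and 24767 at day 17. No day 6 pool overlapped the ES pools, no day 10 pool overlapped the day 6 pools, and the day 10 and day 17 pools overlapped. The mean signal was 6186 ± 1865 at day 6 and 190.2 ± 105 in ES cells (SD, n = 3 each), a ratio of 32.5. The log2 change was 4.98 ± 0.38 from ES cells to day 6 (adjusted p = 7.81e-07) and 6.40 ± 0.38 from ES cells to day 17 (adjusted p = 5.90e-09). Among the 54675 probe sets of an array, DLK1 ranked between 2 and 64 on the untreated neuroepithelial arrays and between 8023 and 15264 on the ES arrays. The highest signals of the arrays were 15234 to 31700, and whether DLK1 was saturated there is not known.

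The further rise to day 10 was smaller, 1.69 ± 0.38 (adjusted p = 0.0125). That call was lost on leaving out either of 2 pools. The rise was 1.41 (adjusted p = 0.0742) without day 6 pool 2 and 1.33 (adjusted p = 0.0693) without day 10 pool 3. Without the 4 arrays with raised low signals it was 1.96 (adjusted p = 0.0147). The second DLK1 probe set, 235600_at, had 8.01, 22.3 and 3.44 in ES cells, 92.5, 67.9 and 85.3 at day 6, 196.2, 248 and 266 at day 10, and 229, 228 and 537 at day 17. When all 54675 probe sets were tested, its changes were 1.90 ± 0.34 from ES cells to day 6 (adjusted p = 0.00507), 1.37 ± 0.34 to day 10 (adjusted p = 0.0325) and 3.62 ± 0.34 from ES cells to day 17 (adjusted p = 1.38e-06). From day 10 to day 17 the signs of the 2 probe sets differed and neither was called: 0.36 ± 0.34 for 235600_at (adjusted p = 0.943) and -0.26 ± 0.38 for the kept one (adjusted p = 0.948). Over all probe sets, 1.07% were higher and 0.788% lower at day 6 than in ES cells, 2.53% higher and 1.35% lower at day 10 than at day 6, 0.591% higher and 0.174% lower at day 17 than at day 10, and 8.77% higher and 5.1% lower at day 17 than in ES cells.

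MEG3 is a long noncoding RNA made from the other parental copy of the same chromosome 14 cluster, and it is the nearest measured gene to DLK1 on 1 side. Its kept probe set, 212732_at, had 11.0, 10.5 and 26.1 in ES cells, 25.9, 17.9 and 16.3 at day 6, 28.6, 74.8 and 32.2 at day 10, and 37.1, 77.7 and 23.5 at day 17. The highest MEG3 signals lay on the pool 2 arrays with raised low signals. Its change was 0.20 ± 0.41 from ES cells to day 6 (adjusted p = 0.952) and 0.90 ± 0.41 from ES cells to day 17 (adjusted p = 0.146). All 10 MEG3 probe sets were low: their 180 values ran from 0.652 to 120.0 with a median of 12.7, and 21 of the 180 lay above the median signal of their array. No change of any of the 10 was called in the fit over all probe sets. On the other sides, LINC00523 beside DLK1 changed by -0.43 ± 0.37 from ES cells to day 6 (adjusted p = 0.788), and the small nucleolar RNA SNORD114-3 beyond MEG3 by -0.64 ± 0.28 (adjusted p = 0.319). Their group means were low, at 18.1 to 38.9 and 1.10 to 19.8, where the scale understates changes.

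**Figure D3:**
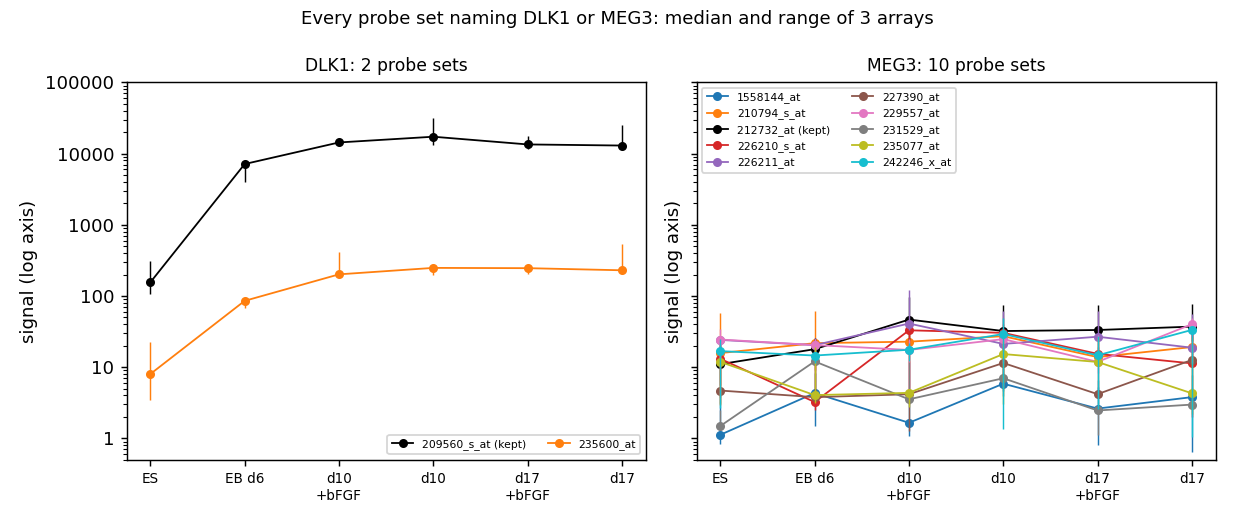
Median signal (log axis, the same in both panels) and range of the 3 arrays of each group for the 2 DLK1 probe sets and the 10 MEG3 probe sets. Both DLK1 lines step up at day 6, while the MEG3 lines lie between 0.652 and 120.0 throughout.

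The MEG3 start region is shown because a differentially methylated region of the cluster is known to overlap it. It is given in lower case with CG dinucleotides, the sites of DNA methylation, in capitals, from RefSeq on GRCh38.p14, from 250 bases before to 50 after the start. Such windows were found for MEG3, MEST, GRB10 and H19.
MEG3, chr14:100825858-100826157, + strand: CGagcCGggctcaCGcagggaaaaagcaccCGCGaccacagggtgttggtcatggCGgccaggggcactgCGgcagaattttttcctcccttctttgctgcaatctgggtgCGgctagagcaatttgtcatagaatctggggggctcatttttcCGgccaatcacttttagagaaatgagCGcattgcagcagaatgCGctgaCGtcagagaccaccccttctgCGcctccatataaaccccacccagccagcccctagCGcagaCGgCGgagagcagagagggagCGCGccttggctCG
This window holds 19 CG dinucleotides, beside a median of 14 over 35116 windows of all genes, and 59.0% G and C beside a median of 58.7%. It also holds TGACGTCA, the full cyclic AMP response element, which reads the same on both strands and of which the central CG is 1 of the capitals. The 3 MEG3 windows overlap and hold this same site, and 649 of all windows (1.85%) hold the element. Methylation was not measured here.

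CDKN1C, the p57 inhibitor of cyclin-dependent kinases that takes progenitors out of the cell cycle, was highest at day 17. Its signal (213348_at) was 198.4, 160.5 and 284 in ES cells, 514, 361 and 638 at day 6, 404, 334 and 843 at day 10, and 1732, 1192 and 2350 at day 17. Every day 17 pool lay above every earlier pool, and the day 6 and day 10 pools overlapped. The change from ES cells to day 17 was 2.93 ± 0.45 (adjusted p = 0.000139), and from ES cells to day 6 it was 1.18 ± 0.45 (adjusted p = 0.220). From day 10 to day 17 it was 1.77 ± 0.45, with an adjusted p of 0.0535 that misses the threshold. In each of these groups the pools kept their order, with pool 3 highest and pool 2 lowest. Once the pool number was fitted as a block, the same change had an adjusted p of 0.000292. That block was shared by all 6 groups, also by the ES and day 6 arrays, whose numbers were not taken to pair them. With the block, the count of the 7 genes called between day 10 and day 17 went up to 2, CDKN1C and GRB10, and between the bFGF groups of the same days to 1, CDKN1C.

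The other CDKN1C probe sets did not all behave alike. The 3 with the suffix _x_at were higher at day 17 than in ES cells by 1.85 to 2.55 on the log2 scale, with adjusted p from 0.00111 to 0.00289 over all probe sets. The remaining one, 219533_at, had signals of 0.771 to 6.00 on all 18 arrays and a change of -0.11 (adjusted p = 0.783). Beside the day 17 level of CDKN1C, the summed signal of 9 neuronal marker genes was 14149 to 16093 at day 17 and 5636 to 9246 at day 10; its part in the result was not tested. Of 14 measured CDK inhibitors, cyclins and CDKs that p57 acts with or beside, 7 were higher and 1 lower at day 17 than in ES cells. Over all genes, 11.7% were higher and 8.47% lower. CDKN2B, the p15 inhibitor, averaged 198.9 ± 21.2 at day 17 and 18.9 ± 4.05 in ES cells, a change of 2.62 (adjusted p = 5.33e-06). CDKN1A, the p21 inhibitor of the same family as CDKN1C, changed by 2.27 (adjusted p = 0.00181) and the G1 kinase CDK6 by 1.54 (adjusted p = 0.000119). The one that fell was CCNE1, cyclin E1 (-1.32, adjusted p = 0.000919). The nearest measured genes on the chromosome, the noncoding KCNQ1DN and SLC67A1-AS, changed by -0.01 ± 0.41 (adjusted p = 0.989) and 0.16 ± 0.41 (adjusted p = 0.860) at day 17 against ES cells. Both had low group means, of 6.42 to 24.3 and 21.5 to 56.1, where the scale understates changes.

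PEG10, which derives from a retrotransposon and is needed for the placenta in the mouse, was higher at day 6 and at day 17 than in ES cells. Its signal (212094_at) was 984, 864 and 565 in ES cells, 2176, 1744 and 2114 at day 6, 2491, 1858 and 2019 at day 10, and 3012, 2143 and 2786 at day 17. The ES pools lay below all others and the 3 later groups overlapped. The change from ES cells to day 6 was 1.34 ± 0.23 (adjusted p = 0.00237), and to day 17 it was 1.72 ± 0.23 (adjusted p = 4.38e-05). The second PEG10 probe set, 212092_at, gave 1.35 ± 0.34 at day 6 (adjusted p = 0.0580) and 1.99 ± 0.34 at day 17 (adjusted p = 0.000653). SGCE, a sarcoglycan gene that starts next to PEG10 and shares its imprint, changed by 0.49 ± 0.20 at day 6 (adjusted p = 0.263) and 0.24 ± 0.20 at day 17 (adjusted p = 0.480). PPP1R9A on the other side changed by 0.73 ± 0.30 at day 17 (adjusted p = 0.102).

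PEG3, a zinc finger protein linked in the mouse to growth and maternal behaviour, was lowest in ES cells. Its signal (209242_at) was 75.0, 195.1 and 46.0 in ES cells, 214, 329 and 303 at day 6, 477, 771 and 283 at day 10, and 562, 1119 and 613 at day 17. The day 6 pools lay above the ES pools, and from day 6 on each group overlapped the next. The change from ES cells to day 17 was 2.81 ± 0.43 (adjusted p = 0.000148). To day 6 it was 1.47 ± 0.43 and missed the threshold (adjusted p = 0.0776); it passed without ES pool 2, at 1.97 (adjusted p = 0.0128). Pool 2 was the highest PEG3 pool in each of these 4 groups. The other probe set, 209243_s_at, was also higher at day 17 than in ES cells, by 1.95 ± 0.42 (adjusted p = 0.00434). Another, annotated to ZIM2 and PEG3 together, stayed between 6.76 and 90.9. Beside PEG3, its antisense RNA PEG3-AS1 changed by 0.30 ± 0.42 at day 17 against ES cells (adjusted p = 0.706) and USP29, a gene of the ubiquitin protease family, by 0.12 ± 0.30 (adjusted p = 0.845). These neighbours were low too, with group means of 15.4 to 55.6 and 1.59 to 15.5.

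MEST, a protein of the alpha/beta hydrolase fold that is abundant in embryonic mesoderm, had a high signal already in ES cells. Its only probe set, 202016_at, had 3361, 3046 and 4051 in ES cells, 6856, 5852 and 7638 at day 6, 7321, 5514 and 11594 at day 10, and 5394, 4819 and 7326 at day 17. The ES pools lay below all others, and the later groups overlapped. The change to day 6 was 0.96 ± 0.25 (adjusted p = 0.0437), which passed the threshold narrowly: it was lost on leaving out 13 of the 18 arrays one at a time, with adjusted p up to 0.176. The change from ES cells to day 17 was 0.73 ± 0.25 (adjusted p = 0.0510); without the 4 arrays with raised low signals it was 0.86 and passed (adjusted p = 0.0280). The summed signal of 16 mesenchyme and muscle markers was 6361 to 7265 in ES cells and 1988 to 2198 at day 6. At day 17 it was 16030 to 19698. Of the 16, 1 was called higher and 4 lower at day 6 than in ES cells, beside 2.19% and 1.66% of all genes. The part of such cells in the MEST signal was not tested. The neighbours of MEST were higher at day 17 than in ES cells: CEP41, a centrosomal protein gene, by 1.85 ± 0.20 (adjusted p = 3.98e-06) and the noncoding COPG2IT1 by 2.95 ± 0.52 (adjusted p = 0.000504). The MEST window with the most CG dinucleotides is shown since the imprint of this gene lies over its CG-rich start.
MEST, chr7:130491835-130492134, + strand: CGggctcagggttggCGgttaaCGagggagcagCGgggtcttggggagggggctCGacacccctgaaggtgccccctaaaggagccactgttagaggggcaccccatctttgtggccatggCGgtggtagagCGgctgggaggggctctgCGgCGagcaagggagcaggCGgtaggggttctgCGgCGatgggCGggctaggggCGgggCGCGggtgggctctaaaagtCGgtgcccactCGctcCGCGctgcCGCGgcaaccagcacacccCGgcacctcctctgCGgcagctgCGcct
It holds 25 CG dinucleotides and 70.3% G and C; the 5 MEST windows hold 13 to 25.

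GRB10, an adaptor that binds the insulin and IGF1 receptors and damps their signal, followed another course. Its signal (209409_at) was 1022, 1128 and 840.1 in ES cells, 699, 735 and 622 at day 6, 1061, 1023 and 972 at day 10, and 1604, 1860 and 1494 at day 17. The day 6 pools lay below and the day 17 pools above all other untreated pools, and the ES and day 10 pools overlapped. The change from ES cells to day 6 was -0.52 ± 0.19 (adjusted p = 0.188). From day 10 to day 17 it was 0.68 ± 0.19 (adjusted p = 0.0909; 0.0253 with the pool number as a block). From ES cells to day 17 it was 0.72 ± 0.19 (adjusted p = 0.0116), a call lost without day 17 pool 2 (0.64, adjusted p = 0.0549) or ES pool 3 (0.61, adjusted p = 0.0568).

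The 4 GRB10 probe sets disagreed on the day 17 level. Against ES cells, 215248_at was higher by 1.21 ± 0.33 (adjusted p = 0.0180 over all probe sets), while 209410_s_at differed by -0.23 ± 0.25 (adjusted p = 0.663) and 210999_s_at by -0.63 ± 0.22 (adjusted p = 0.0702). Probe set 210999_s_at had 264, 191 and 192 at day 6, against 512, 508 and 372 in ES cells, and was called lower there (-1.05 ± 0.22, adjusted p = 0.0167). The mean of the 4 probe sets was lower at day 6 than in ES cells (-0.74, adjusted p = 0.0125), and differed by 0.27 between day 17 and ES cells (adjusted p = 0.291). GRB10 has several annotated starts, and the files do not tie a probe set to a start. The windows with the most and the fewest CG dinucleotides are shown because they differ so widely; both are on the - strand of GRCh38.p14.
GRB10, chr7:50792825-50793124: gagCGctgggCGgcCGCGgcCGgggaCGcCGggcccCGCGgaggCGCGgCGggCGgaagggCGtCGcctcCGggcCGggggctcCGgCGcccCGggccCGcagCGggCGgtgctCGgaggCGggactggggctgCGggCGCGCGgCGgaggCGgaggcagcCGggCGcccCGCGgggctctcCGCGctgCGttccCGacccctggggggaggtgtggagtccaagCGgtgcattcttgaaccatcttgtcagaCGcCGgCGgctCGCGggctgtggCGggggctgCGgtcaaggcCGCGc
GRB10, chr7:50732304-50732603: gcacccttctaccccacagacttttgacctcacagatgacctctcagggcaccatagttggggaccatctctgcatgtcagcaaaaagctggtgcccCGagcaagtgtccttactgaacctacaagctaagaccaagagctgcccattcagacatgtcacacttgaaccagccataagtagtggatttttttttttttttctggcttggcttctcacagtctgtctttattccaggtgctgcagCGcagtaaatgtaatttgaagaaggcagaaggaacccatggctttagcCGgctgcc
The first holds 49 CG dinucleotides and 81.7% G and C, the second 3 and 48.7%. Of all windows, 1.60% hold at least as many as the first. COBL, an actin nucleator gene beside GRB10, was lower at day 17 than in ES cells (-2.84 ± 0.45, adjusted p = 0.000191). The noncoding DDC-AS1 on the other side changed by 0.54 ± 0.34 (adjusted p = 0.324), at low group means of 2.23 to 15.7.

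H19, a maternal noncoding RNA, and IGF2, a fetal growth factor, lie next to each other on chromosome 11 and share enhancers. The microRNA gene MIR675 lies inside H19 (GRCh38.p14 chr11:1996759-1996831, - strand), and the annotation joins both names. Its mature products are shown with the seed, bases 2 to 8, in capitals, since a probe set of the host transcript does not measure them.
miR-675-5p: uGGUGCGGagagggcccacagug
miR-675-3p: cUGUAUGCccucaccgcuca
Probe set 224646_x_at (MIR675 and H19) had 16.2, 13.9 and 13.0 in ES cells, 150.2, 82.4 and 76.9 at day 6, 136, 164 and 112 at day 10, and 229, 218 and 352 at day 17. All later pools lay above the ES pools, by 1.92 ± 0.32 at day 6 (adjusted p = 0.00273 over all probe sets) and 3.19 ± 0.32 at day 17 (adjusted p = 2.69e-06). Probe set 224997_x_at, annotated to the same pair, gave 1.27 ± 0.54 at day 6 (adjusted p = 0.425) and 2.45 ± 0.54 at day 17 (adjusted p = 0.00488).

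Of the 3 probe sets annotated to INS-IGF2 and IGF2, 202409_at had 42.8, 54.1 and 39.6 in ES cells, 136, 139 and 76.7 at day 6, 245, 274 and 148 at day 10, and 741, 249.7 and 1348 at day 17. The day 17 pools differed widely from each other, and pool 2 at day 17 lay within the day 10 range. The change from ES cells to day 17 was 3.41 ± 0.45 (adjusted p = 4.64e-05), and from day 10 to day 17 it was 1.49 ± 0.45 (adjusted p = 0.200). Probe sets 202410_x_at and 210881_s_at were far lower, at 43.7, 6.62 and 118 and at 37.4, 6.04 and 87.9 at day 17, again with pool 3 highest. Against ES cells only the first was called (1.66 ± 0.48, adjusted p = 0.0261; 0.99 ± 0.44, adjusted p = 0.171). Yolk sac and fetal liver express IGF2 and H19 strongly. The summed signal of 13 of 15 listed yolk sac and liver endoderm genes was 2071, 2186 and 3395 in the day 17 pools. It was 278 to 766 at day 10, 263 to 341 at day 6 and 266 to 298 in ES cells. Of the 13, 6 were called higher at day 17 than at day 10, beside 1.45% of all genes. AFP was 659 to 997 at day 17, while ALB was 8.55 to 40.3 and APOA1 9.34 to 22.4 there. The part of such cells in the IGF2 and H19 signals was not tested. The nearest genes measured by a probe set of their own were MRPL23, of the mitochondrial ribosome, and the antisense IGF2-AS, which changed by -0.55 ± 0.34 (adjusted p = 0.320) and 0.12 ± 0.59 (adjusted p = 0.927) at day 17 against ES cells. IGF2-AS was low, with group means of 6.59 to 52.7.

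**Figure D4:**
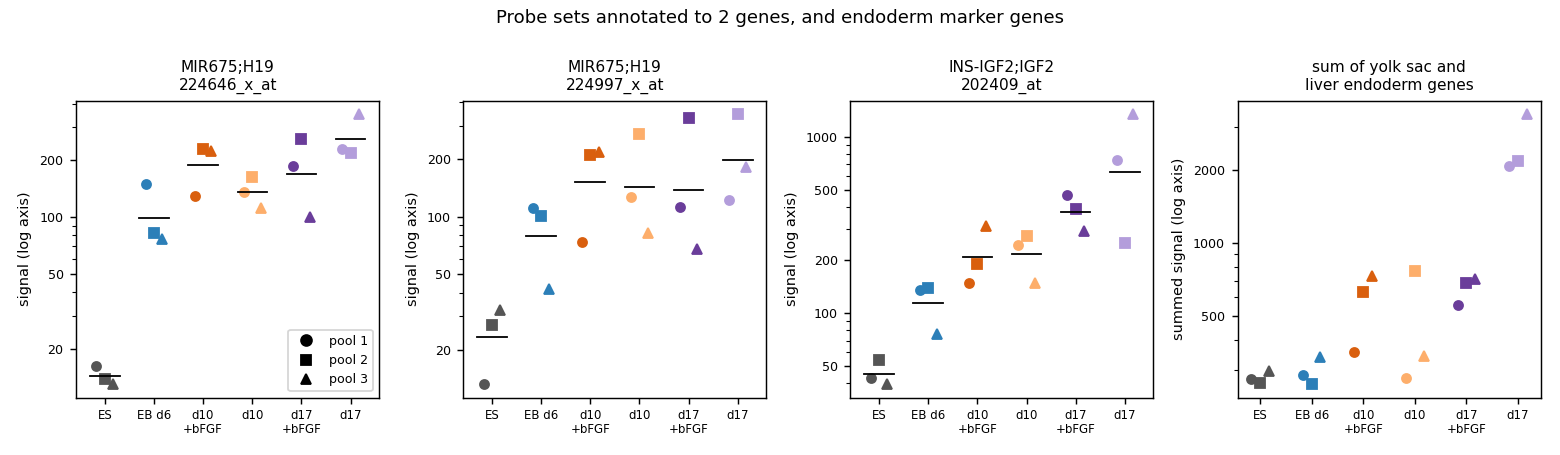
Signal (log axis) on all 18 arrays of 3 probe sets annotated to 2 genes each, and the summed signal of 13 yolk sac and liver endoderm genes; symbols mark the pool number and lines the group mean on the log2(signal + 16) scale. The H19 probe sets are lowest in ES cells, and the endoderm sum is 2071 to 3395 in the untreated day 17 pools and at most 766 in all others.

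The IGF pathway around IGF2 and GRB10 changed in both directions. A list of 27 measured genes linked to IGF and insulin signalling held ligands, receptors, binding proteins, adaptors, proteases, stanniocalcins, RNA-binding proteins and others. Of the 27, 8 were higher and 5 lower at day 17 than in ES cells, with a median change of 0.58. Over all genes, 11.7% were higher and 8.47% lower, with a median of 0.09. PAPPA, a protease that frees IGFs from their binding proteins, averaged 722 ± 171 at day 17 and 56.4 ± 49.9 in ES cells (3.54, adjusted p = 1.84e-05). The binding protein IGFBP3 was higher at day 17 than in ES cells by 2.64 (adjusted p = 2.51e-06), and IGFBP5 was higher at day 10 than at day 6 by 2.39 (adjusted p = 3.14e-05). IRS4, an insulin receptor substrate, was higher at day 6 than in ES cells by 2.22 (adjusted p = 2.37e-05). Both were lower again at day 17 than at day 10. IRS4 averaged 659.8 ± 134 at day 17 and 2210 ± 137 at day 10 (-1.74, adjusted p = 0.000731), and IGFBP5 averaged 756 ± 106 at day 17 and 1738 ± 41.6 at day 10 (-1.19, adjusted p = 0.0296). The 5 genes lower at day 17 than in ES cells were GRB14, an adaptor of the GRB10 family (-2.13, adjusted p = 4.33e-06), STC1, a stanniocalcin (-2.09, adjusted p = 8.54e-06), GRB7, also of the GRB10 family (-1.88, adjusted p = 0.000474), IGFBP6 and IGF2BP3.

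Neither bFGF comparison called any of the 7 genes. Over all genes, limma called 0.086% with bFGF at day 10 and 0.339% at day 17, in either direction, and the unadjusted p was under 0.05 for 0 of the 7 in both. DLK1 was 16001, 14079 and 14313 with bFGF at day 10, against 17227, 13208 and 31442 without, and 13423, 11656 and 17687 with bFGF at day 17, against 12949, 12873 and 24767 without. The groups overlapped on both days (-0.38 ± 0.38 at day 10 and -0.19 ± 0.38 at day 17). CDKN1C was 1073, 630 and 2253 with bFGF at day 17, against 1732, 1192 and 2350 without; each pool was lower than its equal number, and the change was -0.55 ± 0.45. GRB10 was 1244, 1570 and 982 with bFGF, against 1604, 1860 and 1494 without, again lower in each pool (-0.40 ± 0.19, unadjusted p = 0.0516, adjusted p = 1.000). At day 17, PEG3 was 739, 1141 and 529 with bFGF, against 562, 1119 and 613 without, and PEG10 was 3409, 2479 and 2310 with bFGF, against 3012, 2143 and 2786 without. MEST was 6365, 5605 and 7308 with bFGF at day 17, against 5394, 4819 and 7326 without. Each of these pairs of groups overlapped. The changes of MEG3, PEG3, PEG10 and MEST with bFGF ran from -0.12 (MEST) to 0.32 (PEG3) at day 10 and from -0.00 (MEG3) to 0.15 (MEST) at day 17. The standard errors at both days were 0.19 to 0.45, and effects of bFGF well above that size could go uncalled. Between day 10 and day 17 without bFGF, a CDKN1C change of 1.77 ± 0.45 also missed the threshold. The difference of the bFGF effects between the days was called for none of the 7, and for 0% of all genes; the unadjusted p was under 0.05 for 0 of the 7. Under bFGF from day 10 to day 17, where 1.05% of genes were called, none of the 7 was: CDKN1C changed by 1.26 ± 0.45 (adjusted p = 0.341; 0.00519 with the pool number as a block), and it was the only 1 with an unadjusted p under 0.05. The endoderm sum was 556 to 714 with bFGF at day 17, against 2071 to 3395 without. At day 17 the INS-IGF2 and IGF2 probe sets averaged 383 (202409_at), 23.1 (202410_x_at) and 8.95 (210881_s_at) with bFGF. Without it they averaged 780, 56.1 and 43.8. The MIR675 and H19 probe sets averaged 182 (224646_x_at) and 170 (224997_x_at) with bFGF, against 266 and 217 without. For each of these probe sets the groups with and without bFGF overlapped. A link to the endoderm sum was not tested.

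Each gene was set beside all 9919 other genes whose mean signal reached 100 in some group, by Pearson correlation over the 18 arrays. These are descriptions: the arrays share scaling, groups and pool numbers. Nearest to DLK1 were LIX1 (0.99), the forebrain and eye field homeobox gene LHX2 (0.98) and GAS1 (0.98), a hedgehog-binding surface protein. LHX2 averaged 979 at day 6, 3991 at day 10 and 4073 at day 17, after 7.24 in ES cells. Nearest to CDKN1C were HES6 (0.93), a proneural relative of the HES repressors, SLC35F1 (0.93) and DKK3 (0.93). PEG10 lay nearest to COL4A6 (0.98), IGDCC4 and SOBP, and PEG3 to ZNF704 (0.96), CAST and KAT2B. MEST lay nearest to FZD2 (0.94), a Wnt receptor, ID2 and PLPBP, GRB10 to ABHD3 (0.92), SLCO5A1 and HTR2C, and MEG3 to SMIM11 (0.92), TOP3A and DVL1. Among themselves, DLK1 and PEG10 correlated at 0.91 over 18 arrays and at 0.37 over the 15 arrays without ES cells. PEG3 and MEST correlated at 0.40 over 18 arrays and at -0.61 over the 15.

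Genes linked to DLK1 through Notch or fat cell formation were also tested, and 7 of 12 were higher and 0 lower at day 17 than in ES cells. That comparison called 11.7% of all genes higher and 8.47% lower. SOX9, a progenitor factor that DLK1 is known to induce in mouse fat cell precursors, averaged 1039 ± 195 at day 17 and 62.9 ± 8.72 in ES cells (3.73, adjusted p = 4.95e-07). HEY1, a Notch target, averaged 958 ± 176 at day 17 and 90.8 ± 18.3 in ES cells (3.19, adjusted p = 8.79e-08). The receptor NOTCH1 changed by 1.87 (adjusted p = 1.84e-05) and its target HES1 by 1.99 (adjusted p = 0.00300).

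Other imprinted genes gave a comparison. Of 19 measured genes expressed from the paternal copy, 7 were higher and 0 lower at day 17 than in ES cells, with a median change of 0.45. Over all genes, 11.7% were higher and 8.47% lower. The 7 were NNAT, PLAGL1, DIO3, NDN, HYMAI, MAGEL2 and NAP1L5. NNAT, a neuronal membrane protein, averaged 3523 ± 1254 at day 17 and 269 ± 81.7 in ES cells (3.61, adjusted p = 0.000844). DIO3, a deiodinase that inactivates thyroid hormone and lies in the DLK1 cluster, averaged 201.0 ± 55.3 at day 17 and 18.7 ± 8.77 in ES cells (2.64, adjusted p = 1.27e-06), and it was called from day 6 to day 10 (1.38, adjusted p = 0.00269). PLAGL1, a zinc finger transcription factor, and HYMAI, which overlaps it, were the only 2 of the 19 called from day 10 to day 17, by 1.71 (adjusted p = 0.00884) and 1.63 (adjusted p = 0.0328). NDN, a growth regulator of the Prader-Willi region, changed by 1.80 from ES cells to day 17 (adjusted p = 0.000101).

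Of 18 measured genes expressed from the maternal copy, 2 were higher (GNAS and RB1) and 2 lower (PHLDA2 and NLRP2) at day 17 than in ES cells, with a median change of 0.12. These shares lie near those of all genes, 11.7% higher and 8.47% lower, and the difference from the paternal list was not tested. PHLDA2, a brake on placental growth beside CDKN1C on chromosome 11, was lower at day 6 than in ES cells (-1.95, adjusted p = 0.000133). It was the only 1 of the 18 called with bFGF: it averaged 585 ± 196 with bFGF and 114 ± 14.0 without at day 10 (2.16, adjusted p = 0.00167), and 486 ± 117 with and 179 ± 12.7 without at day 17 (1.34, adjusted p = 0.0246). TFPI2, a protease inhibitor in the PEG10 cluster, fell to 8.98 ± 4.41 at day 6, against 237 ± 56.9 in ES cells (-3.33, adjusted p = 0.000107). It was higher again at day 10, at 151 ± 66.9 (2.66, adjusted p = 0.000589 against day 6), and averaged 485 ± 267 at day 17, a change of 0.86 against ES cells that was not called (adjusted p = 0.174). With bFGF, TFPI2 averaged 743 ± 288 at day 10 and 796 ± 247 at day 17 and was not called (2.21, adjusted p = 0.0661, and 0.80, adjusted p = 1.000). NLRP2, a maternal-effect gene, fell to 195.3 ± 59.7 at day 17, against 925 ± 75.1 in ES cells (-2.19, adjusted p = 2.02e-05).

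**Figure D5:**
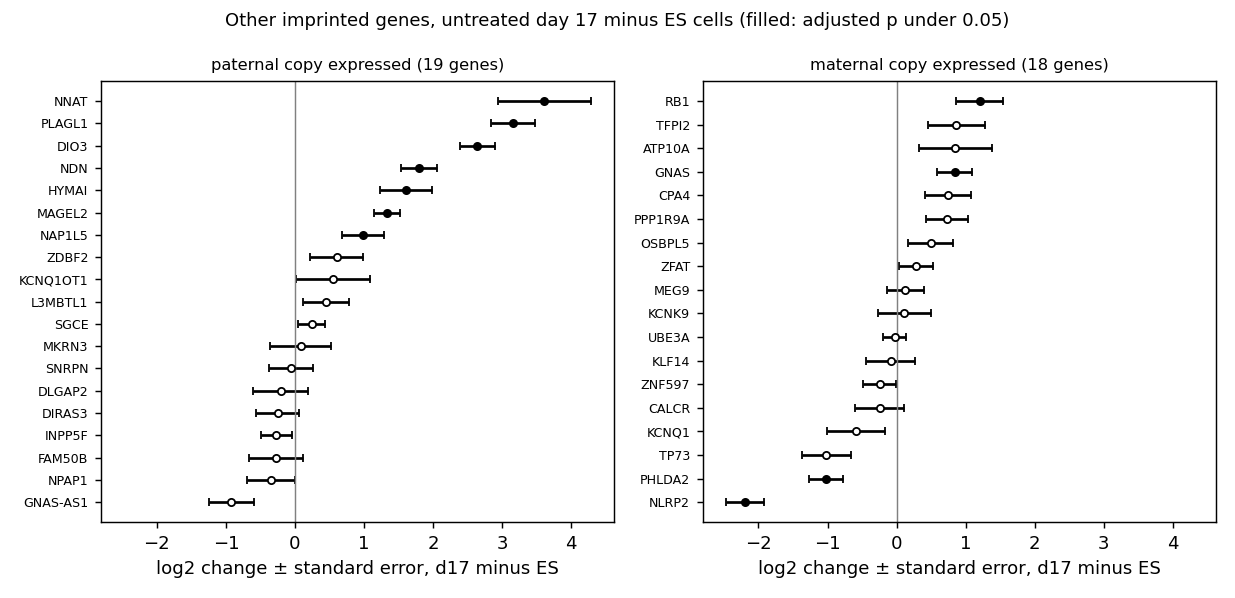
The log2(signal + 16) change of untreated day 17 neuroepithelium minus ES cells for 19 other imprinted genes expressed from the paternal copy (left) and 18 from the maternal copy (right), with bars of 1 standard error (n = 3 pools a group); filled points have an adjusted p under 0.05. All 7 filled points on the left are positive, and on the right 2 are positive and 2 negative.

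Of 17 measured genes that keep or read imprints, 2 were higher and 3 lower at day 17 than in ES cells, beside 11.7% higher and 8.47% lower over all genes. UHRF1, which guides maintenance methylation to newly copied DNA, changed by 1.29 (adjusted p = 0.00119). The 5-methylcytosine oxidase TET2 changed by 1.58 (adjusted p = 0.000148), while TET1 changed by -1.28 (adjusted p = 0.00273). NLRP7, mutated in familial loss of maternal imprints, was lower at day 6 than in ES cells, at 11.2 ± 8.11 and 79.0 ± 11.8 (-1.84, adjusted p = 0.0129).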

How the data were processed

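The authors deposited linear signal intensities, in a table of 54675 probe sets by 18 arrays. How signals were summarised and background-corrected is not given in the sources used here, nor are detection calls. Trimmed means agreed between arrays, so no further normalization was applied. The platform annotation named 1 gene for 41097 probe sets, several for 1801 and none for 11777. The 8 comparisons used limma 3.58.1 under R 4.3.3 (lmFit and eBayes, a mean for each group, all 18 arrays together) on log2(signal + 16), with Benjamini-Hochberg adjusted p under 0.05 over 19775 genes; a second fit took all probe sets. The test was tested on simulated data. The number of arrays, 3 a group, limits the precision, and an exact permutation test of 3 against 3 cannot go below 0.1.

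The members and lists were chosen with earlier results of these data known. Text names the 9 genes and their neighbours, up to 4 genes of each list with the largest change among those called, and the 3 genes most like each member. The other called imprinted genes, the genes of the IGF list lower at day 17 and the markers AFP, ALB, APOA1 and SOX2 were named after their values were seen. ES pool 1 has no number in its title, and for 1 day 10 pool with bFGF the title gives number 2, which was used, and the description 1. Same-numbered arrays deviated together in the 4 neuroepithelial groups (18 pairs, correlations 0.317 to 0.693), so their numbers were taken to pair them. The pool 2 pairs, all on arrays with raised low signals, lay at 0.606 to 0.693 and the other pairs at 0.317 to 0.552. Pool 1 against pool 3 of another of these groups gave 0.0369 to 0.265. Shared cultures and the set of 4 arrays cannot be told apart here. Between day 10 and day 6 the lowest was 0.0749, so those arrays were not paired.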

Additional observations from a re-analysis of the deposited data

How the results depend on the processing

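Over all alternatives to the changes of the 7 genes (pseudocounts 1 and 64, quantile normalization, the upper 60% of genes, a trended and robust prior, compared groups only, the mean of probe sets, every probe set tested, the replicate block, leaving out the 4 arrays with raised low signals or giving them a term, and leaving out each array), 1497 values kept their direction and side of the threshold, 37 gained a call, 23 lost one, and 59 changed sign, none of them called with either sign (at most 0.32 in size as reported and 0.35 in the alternative). The other probe sets differed in sign from the kept one in 50 of 152 changes. In 3 of the 50 the kept probe set was called, all at day 17 against ES cells: CDKN1C 219533_at (-0.11), GRB10 209410_s_at (-0.23) and GRB10 210999_s_at (-0.63).

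Of the 7 genes, 3 were called from ES cells to day 6 (5 with the replicate block and 5 with the array set as a term; 2 to 3 on leaving out 1 array). From day 6 to day 10 it was 1 (2 with pseudocount 64 or the block, 0 with the compared groups only; 0 to 1). From day 10 to day 17 it was 0 (1 after quantile normalization, 2 with pseudocount 64, the upper 60% of genes, the trended prior, the block or the array term; 0 to 1). From ES cells to day 17 it was 5 (6 with the block; 4 to 6). From bFGF day 10 to bFGF day 17 it was 0, and 1 with the block. In the other comparisons the block left the count of these genes at 0.

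All genes called, from ES cells to day 6, were 762 (array term 1171; 462 to 776 leaving out 1 array). From day 6 to day 10 they were 1259 (compared groups only 647, every probe set 2123, block 2339; 842 to 1326). From day 10 to day 17 they were 393 (pseudocount 1 226, compared groups only 34, block 704, without the 4 arrays 229, array term 645; 206 to 409). From ES cells to day 17 they were 3989 (every probe set 7581; 3130 to 4131). With bFGF at day 10 they were 17 (pseudocount 1 2, compared groups only 0, mean of probe sets 10, block 30, without the 4 arrays 4, array term 37; 3 to 19). With bFGF at day 17 they were 67 (pseudocount 1 20, compared groups only 0, block 105, array term 102; 22 to 73). From bFGF day 10 to bFGF day 17 they were 208 (pseudocount 1 113, compared groups only 6, block 403, without the 4 arrays 106, array term 362; 113 to 219). For the difference of the bFGF effects they were 0 (1 with pseudocount 64, the block or the array term; 0 to 1). Fits of compared groups alone have fewer arrays, and every-probe-set fits test more features; for the others the cause was not tested.

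The numbers were not taken to pair ES and day 6 arrays: only 2 pairs have numbers in their titles, with correlations of 0.383 (pool 2, different passages) and 0.209 (pool 3, the same passages). With the block, CDKN1C (1.17, adjusted p = 0.00915) and PEG3 (1.44, adjusted p = 0.0191) were called from ES cells to day 6, MEST (0.71, adjusted p = 0.0167) from ES cells to day 17 and GRB10 (0.56, adjusted p = 0.0310) from day 6 to day 10. Each of these calls takes in ES or day 6 arrays, for which the pairing was not taken to hold. For PEG3 and MEST the call did not need the block. Without the 4 arrays with raised low signals and with no block, PEG3 was called from ES cells to day 6 (1.47, adjusted p = 0.0378). MEST was called there from ES cells to day 17 (0.86, adjusted p = 0.0280). ES pool 1 was left out of the block fit. Without detection calls, low signals such as those of MEG3 carry no bound.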
